A study of Brassica carinata and Brassica napus and Brassica carinata x Brassica napus with 3 samples.

Results

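The proteins of the actin cytoskeleton were compared between floral buds of an interspecific Brassica hybrid and those of its parents. They were chosen by name, as assembled sequences whose best Swiss-Prot hit begins with "Actin" or names a profilin, an actin-depolymerizing factor (ADF), a formin-like protein, a fimbrin, a villin or a myosin, with a Swiss-Prot score of at least 0.6 of the score of the best Nr hit. Of 826 sequences so named, 443 were kept, and their values were summed per Swiss-Prot entry. This gave 77 entries, out of 10526 entries formed in the same way from the whole table. They were 19 actins, 22 formins, 13 ADFs, 9 actin-related proteins, 8 profilins, 4 villins and 2 fimbrins. No kept sequence had a Swiss-Prot entry named myosin as its best hit. Of the 77 entries, 57 reached at least 5 RPKM (reads per kilobase of sequence and per 1000000 reads of the library) in 1 library or more and are called measured here. The other 20 stayed under this level in all 3 libraries, and 9 of them were actins, 6 formins, 3 profilins and 2 ADFs.

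The study sequenced RNA from whole floral buds collected at initial flowering. Its groups were a hybrid between Brassica carinata and Brassica napus, the B. carinata cultivar W29 and the B. napus cultivar Zhongshuang 11, with 1 library each. No source used here gives the direction of the cross or how many plants were pooled. In units of 1000000 reads, the libraries held 27.09 for the hybrid, 28.15 for B. carinata and 28.24 for B. napus, and the actin cytoskeleton entries took 0.441%, 0.4% and 0.393% of them in the same order. With 1 library per group no difference has a replicate check and no test was possible. Intervals (95%) of read ratios below are exact conditional binomial intervals. They cover counting error only, and since the reads carry no molecular identifiers, several may stem from 1 molecule. The floral tissue label fitted its marker genes: APETALA3, PISTILLATA and AGAMOUS, which specify petals, stamens and carpels, had summed levels of 667 RPKM in the hybrid, 771 in B. carinata and 482 in B. napus.

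Actin filaments grow and shrink at their ends. Profilin binds actin monomers and feeds them to formins, which nucleate and elongate filaments. The ARP2/3 complex nucleates branches, ADFs sever filaments and remove subunits, and fimbrins and villins cross-link filaments into bundles along which myosins move. In Arabidopsis, whose entries name most sequences here, several of these families split into a vegetative branch used in most tissues and a branch that is made late in pollen, where filaments carry vesicles to the tip of the growing pollen tube. B. napus carries the A and C genomes of Brassica and B. carinata the B and C genomes, so the hybrid can hold copies of each gene from both parents, which the assembly may keep apart as separate sequences.

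Most entries tested between the hybrid and B. carinata had like levels, and more entries stood apart from B. napus. A value was called apart at 2-fold or more, as the log2 ratio of RPKM + 1, where the higher of the 2 libraries had 5 RPKM or more. Between the hybrid and B. carinata 3 of 46 entries were apart, 1 higher and 2 lower in the hybrid, which is 6.52% of the entries, against a background of 12.2% of all 8067 entries tested in that comparison (3.81% higher and 8.44% lower). Between the hybrid and B. napus 20 of 56 were apart, 9 higher and 11 lower in the hybrid, or 35.7% against a background of 16.6% of 8089 (8.51% higher and 8.07% lower). Between B. carinata and B. napus 24 of 57 were apart, 11 higher and 13 lower in B. carinata, or 42.1% against 31.1% of 8460 (18.3% higher and 12.8% lower). Except for ACT3 and, in B. carinata, the cotton actin, all entries lower than in B. napus passed the filter through B. napus alone. They could only be lower, and all but the carrot actin were left out between the hybrid and B. carinata. Some entries called higher likewise passed through the hybrid or B. carinata alone. The median log2 ratios were near 0 throughout. They were -0.07 for the hybrid over B. carinata, -0.08 for the hybrid over B. napus and -0.13 for B. carinata over B. napus, beside -0.08, 0.01 and 0.07 over all entries. None of 45 entries lay at least 2-fold below both parents, against 1.06% of all 7646 entries, and none lay at least 2-fold above both, against 0.262%. The 3 entries apart between the hybrid and B. carinata became 0 with hits scoring at least 100 and 9 with no filter on low values. With the libraries scaled by edgeR's TMM factors (trimmed mean of M-values) 2 of 3 were higher in the hybrid than in B. carinata, and 12 of 21 higher than in B. napus. The comparisons share libraries, so their counts are not independent.

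**Figure D1:**
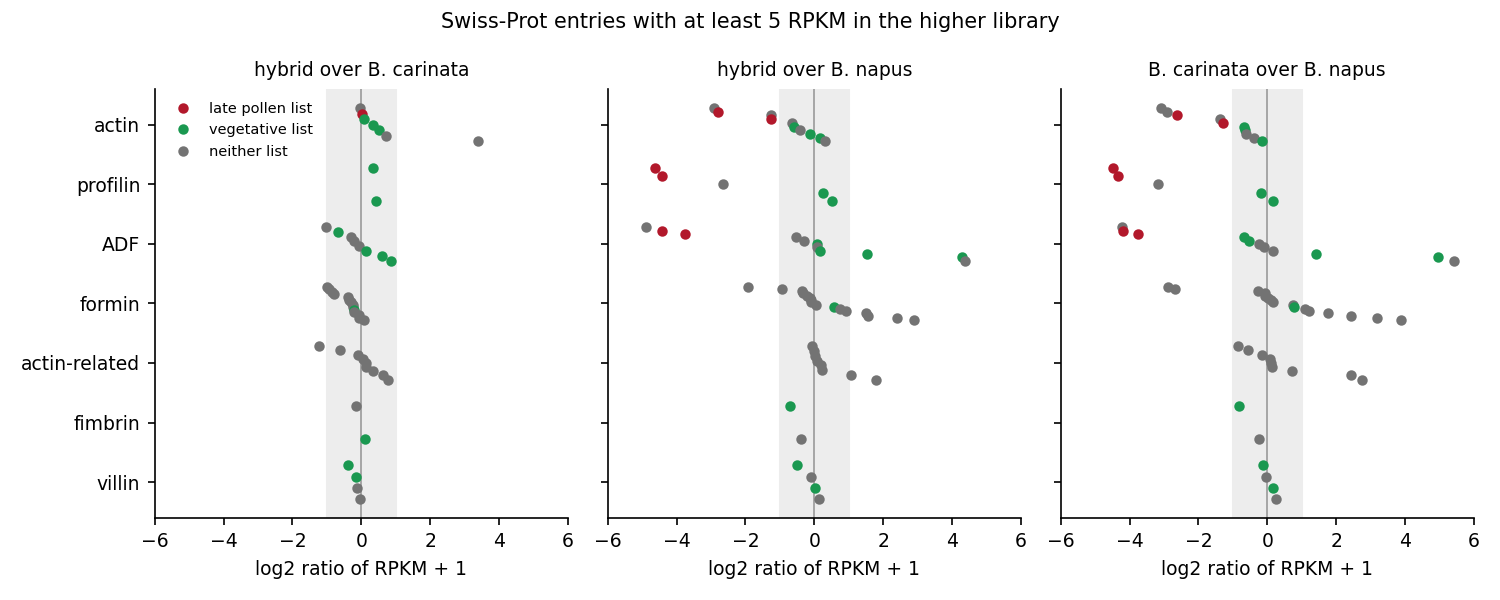
Log2 ratios of RPKM + 1 of entries that reached 5 RPKM in the higher library, by family, for the hybrid over B. carinata, the hybrid over B. napus and B. carinata over B. napus. Each point is 1 Swiss-Prot entry, coloured by isoform list, and the grey band covers ratios under 2-fold. In the middle and right panels all points of the late pollen list lie left of the band. Except for ACT3, these passed the level filter through B. napus alone and could only be lower in the other libraries. Of the vegetative list, 11 of 13 points lie inside the band in these panels. Over all entries, 16.6% (middle) and 31.1% (right) were apart.

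Of the late pollen isoforms found here, all but ACT3 were low in the hybrid and in B. carinata and reached 5 RPKM in B. napus alone. Of 18 Arabidopsis genes listed as late pollen isoforms, 6 had an entry here: the actins ACT3 and ACT12, the profilins PRF4 and PRF5, and ADF7 and ADF10. Together these 6 entries held 33.2 RPKM (576 reads) in the hybrid, 33.0 RPKM (571 reads) in B. carinata and 197 RPKM (3445 reads) in B. napus. The log2 ratio of the sums was -2.53 for the hybrid over B. napus, -2.54 for B. carinata over B. napus and 0.01 for the hybrid over B. carinata, and the last value was -0.29 with median-of-ratios scaling. In the hybrid all 6 entries were lower than in B. napus by 2-fold or more, and likewise in B. carinata, against 8.07% and 12.8% of all entries. Except for ACT3, the 6 passed the level filter through B. napus alone, so they could only be lower in the other libraries and their count supports nothing. Without ACT3 the other 5 entries held 1.94 RPKM (36 reads) in the hybrid, 2.48 RPKM (44 reads) in B. carinata and 121 RPKM (2068 reads) in B. napus. Their read ratio was 0.0182 (interval 0.0127 to 0.0252) for the hybrid over B. napus and 0.0213 (0.0155 to 0.0288) for B. carinata over B. napus.

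The vegetative isoforms were abundant in all 3 libraries. Of 17 genes listed, 14 had an entry and 13 were measured. Their summed level was 2939 RPKM in the hybrid, 2308 in B. carinata and 2433 in B. napus. For these sums the log2 ratio was 0.35 for the hybrid over B. carinata and 0.27 for the hybrid over B. napus. For B. carinata over B. napus it was -0.08, and its sign turned to 0.20 under both other scalings of the libraries. All 13 differed by less than 2-fold between the hybrid and B. carinata, and 11 were within 2-fold of B. napus in the hybrid and in B. carinata. Thus 0, 2 and 2 of the 13 were apart in the 3 comparisons, beside 12.2%, 16.6% and 31.1% of all entries. The counts lie under these shares, but 13 entries are too few to say much about vegetative isoforms as such. The ADF1 and ADF2 entries were the others, both higher in the hybrid and in B. carinata than in B. napus.

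**Figure D2:**
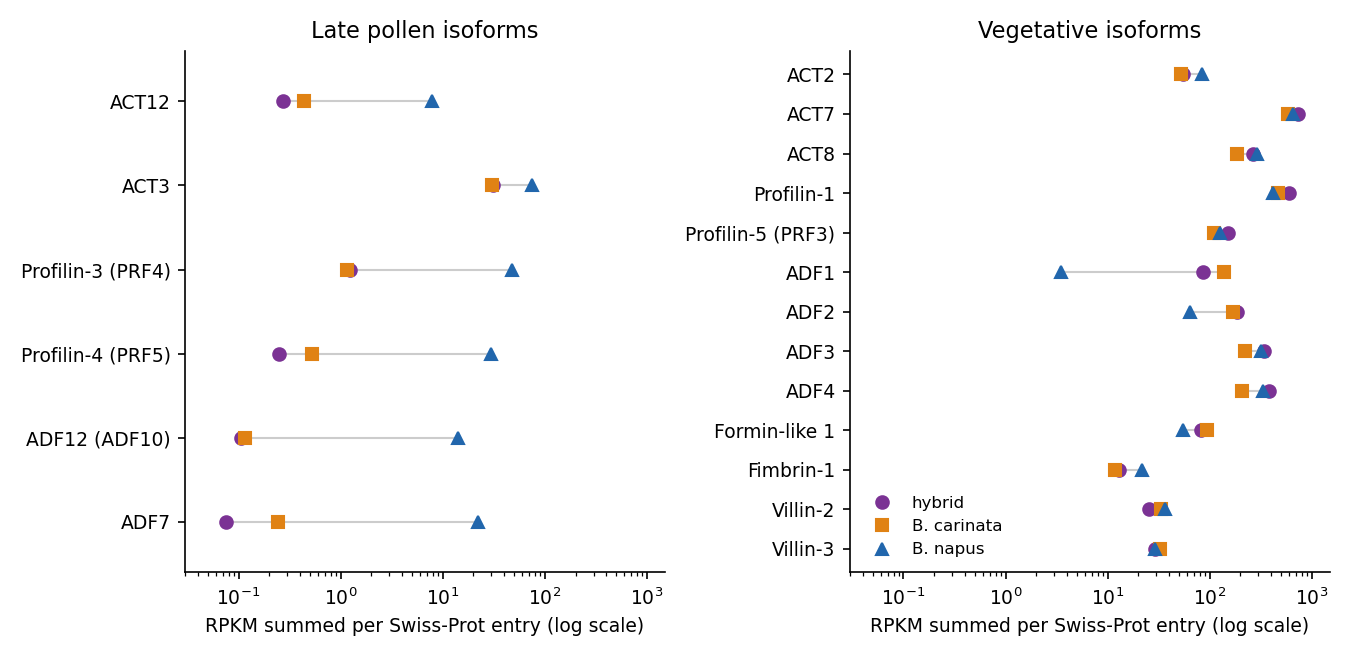
Level of each measured entry of the late pollen list (left) and the vegetative list (right) in the hybrid, B. carinata and B. napus, as RPKM summed per Swiss-Prot entry on a log axis, with 1 library per group. Hybrid and B. carinata points lie together at the low end for 5 late pollen entries (0.0747 to 1.24 RPKM), with B. napus at 7.88 to 47.3 RPKM, while most vegetative entries have all 3 points close together.

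Swiss-Prot numbers some of these proteins differently from their gene names. The Profilin-3 entry is the gene PRF4, Profilin-4 is PRF5, Profilin-5 is PRF3, and ADF12 is the gene called ADF10 in the Arabidopsis literature. In the table itself, 2 of the 7 sequences of the Profilin-5 entry had an Nr hit named profilin 3, and the sequence of the ADF10 entry had an Nr hit named actin depolymerizing factor 11. The lists follow the gene names, a choice made after the values were seen. Taken by the number in the entry name instead, the late pollen list held 183 RPKM in the hybrid, 142 in B. carinata and 264 in B. napus. Its log2 ratio was then -0.53 for the hybrid over B. napus and -0.89 for B. carinata over B. napus, since it then included the Profilin-5 entry, at 149.7 RPKM in the hybrid, 110.4 in B. carinata and 126 in B. napus.

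Among the actins, the 3 vegetative genes made up most of the level. ACT7, the actin of rapidly growing and hormone-responsive tissue, had 729.5 RPKM in the hybrid, 579 in B. carinata and 651 in B. napus. ACT8 had 268 RPKM in the hybrid, 186 in B. carinata and 293 in B. napus, and ACT2, its near relative, had 55.3, 52.3 and 83.6 RPKM in the same order. All their ratios were under 2-fold, the widest being -0.67 on the log2 scale for ACT2 in B. carinata over B. napus. The whole actin family held 1228 RPKM in the hybrid, 946 in B. carinata and 1329 in B. napus, and its log2 ratio for the hybrid over B. napus was -0.11, which turned to 0.34 with TMM scaling. Of the 10 measured actins, 0 were higher and 4 lower in the hybrid than in B. napus, and 0 were higher and 5 lower in B. carinata, against 8.07% and 12.8% of all entries lower in these comparisons. Of these calls, 3 of the 4 and 3 of the 5 passed the level filter through B. napus alone and could only be lower.

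ACT12, a late pollen actin, had 0.271 RPKM (3 reads) in the hybrid, 0.434 RPKM (5 reads) in B. carinata and 7.88 RPKM (82 reads) in B. napus. Its read ratio was 0.0381 (interval 0.00771 to 0.115) for the hybrid over B. napus and 0.0612 (0.0194 to 0.149) for B. carinata over B. napus. Its sequence with most reads, 409 bases long, had 3 reads in the hybrid, 5 in B. carinata and 64 in B. napus. ACT3 had 31.2 RPKM (540 reads) in the hybrid, 30.6 RPKM (527 reads) in B. carinata and 75.7 RPKM (1377 reads) in B. napus, with log2 ratios of -1.25 and -1.28 against B. napus, the first of which was -0.80 with TMM scaling. The entry joined 6 sequences that differed among themselves. One of 568 bases had 14 reads in the hybrid, 19 in B. carinata and 602 in B. napus, and it led in B. napus. Another of 545 bases had 273 reads in the hybrid, 346 in B. carinata and 214 in B. napus, and it led in the hybrid and B. carinata. It lay in the same assembly cluster as sequences of the vegetative actins ACT2, ACT7 and ACT8, and whether its reads belong to a pollen actin was not tested. With this sequence, the one of highest mean level, standing for the entry, the log2 ratio turned to 0.39 for the hybrid over B. napus and 0.66 for B. carinata over B. napus. Of the 6, 3 had an Nr hit named actin-1, and since ACT1 and ACT3 are nearly identical proteins, their reads cannot be told apart here.

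Actins named by entries of other species were mostly single short sequences. The entry of carrot actin (Daucus carota) was 1 sequence of 285 bases with 74 reads (9.58 RPKM) in the hybrid, 0 reads in B. carinata and 61 reads (7.58 RPKM) in B. napus. It was thus at least 25.6-fold higher in the hybrid than the 3 reads that a count of 0 allows in B. carinata, and it was the single entry called higher in that comparison. Its Swiss-Prot score was 56.6. A sequence of 325 bases in the same assembly cluster was counted under ACT7. It had 77 reads in the hybrid, 153 in B. carinata and 0 in B. napus, and the ratio of the carrot entry leaves it out. That ratio may thus not be the ratio of a gene. The entry of the green alga Scherffelia dubia, a sequence of 275 bases, had 51 reads (6.57 RPKM) in B. napus and 0 in both the hybrid and B. carinata, so that relative to B. napus it was lower by at least 16.3-fold in the hybrid and 16.9-fold in B. carinata. The pea entry Actin-3 had 2.31 RPKM in the hybrid, 4.14 in B. carinata and 6.89 in B. napus, with a log2 ratio of -1.25 for the hybrid over B. napus that was -0.89 with TMM scaling and -0.70 with 5 RPKM added. The cotton entry (Gossypium hirsutum), with 5 sequences, had 90.3 RPKM in the hybrid, 54.1 in B. carinata and 142 in B. napus, and was lower in B. carinata than in B. napus (log2 -1.38).

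The profilins fell into a general set at like levels and a set read almost wholly in B. napus. Profilin-1, the main vegetative profilin, had 594 RPKM in the hybrid, 465 in B. carinata and 416 in B. napus. Its log2 ratio was 0.35 for the hybrid over B. carinata and 0.51 for the hybrid over B. napus. The Profilin-5 entry (PRF3) had log2 ratios of 0.44 and 0.25 in the same order. Profilin-2, the remaining vegetative member, was not measured and had 19 reads in the hybrid, 40 in B. carinata and 0 in B. napus.

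Of the pollen profilins, the Profilin-3 entry (PRF4, a profilin of mature pollen) was 1 sequence of 863 bases with 29 reads (1.24 RPKM) in the hybrid, 28 reads (1.15 RPKM) in B. carinata and 1153 reads (47.3 RPKM) in B. napus. Its read ratio was 0.0262 (interval 0.0175 to 0.0379) for the hybrid over B. napus and 0.0244 (0.0161 to 0.0354) for B. carinata over B. napus. The Profilin-4 entry (PRF5, likewise of pollen) had 2 reads (0.248 RPKM) in the hybrid, 6 reads (0.527 RPKM) in B. carinata and 296 reads (30.0 RPKM) in B. napus. Its sequence of 298 bases led in the hybrid, with 2 reads, and in B. napus, with 186, while the one of 493 bases led in B. carinata, with 4 reads. One more entry, named for the profilin of B. napus itself, had 15 reads (0.797 RPKM) in the hybrid, 5 reads (0.256 RPKM) in B. carinata and 203 reads (10.3 RPKM) in B. napus. Sequences of all 3 entries formed 1 cluster of the assembly, which held nothing else. Its 3 sequences had 44 reads in the hybrid, 37 in B. carinata and 1466 in B. napus, or 2.04, 1.70 and 65.5 RPKM. The clusters were looked up after the values were seen.

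The ADFs likewise held a set read almost wholly in B. napus, but their general set was not all at like levels. The first set passed the level filter through B. napus alone and could only be lower in the other libraries. ADF7, which turns over filaments in pollen, had 1 read (0.0747 RPKM) in the hybrid, 4 reads (0.245 RPKM) in B. carinata and 401 reads (22.0 RPKM) in B. napus. Its read ratio was 0.0026 (interval up to 0.0146) for the hybrid over B. napus and 0.0100 (0.00271 to 0.0258) for B. carinata over B. napus. Its longer sequence, of 703 bases, had 0 reads in the hybrid, 2 in B. carinata and 317 in B. napus. Its other sequence, of 494 bases, had 1 read in the hybrid, 2 in B. carinata and 84 in B. napus. Next to it, the ADF12 entry (gene ADF10, the partner of ADF7 in pollen) had 1 read in the hybrid, 1 in B. carinata and 136 in B. napus, which is 0.105, 0.117 and 14.1 RPKM. Its 352-base sequence led in the hybrid, with 1 read, and in B. napus, with 110 reads, and its 305-base one in B. carinata, with 1 read. An entry named for an ADF of B. napus had 3 reads (0.530 RPKM) in the hybrid, 9 reads (1.41 RPKM) in B. carinata and 321 reads (44.4 RPKM) in B. napus, and 2 of its 4 sequences had an Nr hit named actin depolymerizing factor 7. Of the 8 sequences of these 3 entries, 7 formed 1 assembly cluster with the single sequence of ADF8. That cluster had 11 reads in the hybrid, 24 in B. carinata and 832 in B. napus.

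Vegetative ADFs made up most of the family. ADF1, ADF2, ADF3 and ADF4, closely related severing proteins of most tissues, together held 991 RPKM in the hybrid, 739.9 in B. carinata and 722 in B. napus, with log2 ratios of 0.42 for the hybrid over B. carinata, 0.46 for the hybrid over B. napus and 0.04 for B. carinata over B. napus. They differed among themselves. ADF3 had 339.6 RPKM in the hybrid, 223 in B. carinata and 319 in B. napus, and ADF4 had 379, 209 and 335 RPKM in the same order, all within 2-fold. ADF1 had 86.1 RPKM (1853 reads) in the hybrid, 137 RPKM (3071 reads) in B. carinata and 3.48 RPKM (78 reads) in B. napus. The log2 ratio of this entry was 4.28 for the hybrid over B. napus and 4.95 for B. carinata over B. napus. These ratios leave out a sequence counted under ADF4 whose Nr hit names ADF1, given below. ADF2 had 186 RPKM in the hybrid, 171 in B. carinata and 63.9 in B. napus, with log2 ratios of 1.53 and 1.41 against B. napus. An ADF2 entry of petunia, with a pair of short sequences, had 25.6 RPKM (186 reads) in the hybrid, 53.4 RPKM (403 reads) in B. carinata and 0.265 RPKM (2 reads) in B. napus. It was the ADF called lower in the hybrid than in B. carinata, at -1.03 on the log2 scale, and at -0.86 with TMM scaling and -0.93 with 5 RPKM added.

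The single sequence of ADF1 and both petunia-named sequences lay in 1 assembly cluster with sequences of ADF3 and ADF4. Over its 10 sequences this cluster had 8411 reads in the hybrid, 7768 in B. carinata and 7116 in B. napus. Its read ratio was 1.23 (interval 1.19 to 1.27) for the hybrid over B. napus, while that of ADF1 alone was 24.8 (19.7 to 31.5). The cluster of ADF2, whose 7 sequences were shared with ADF4, had 5772 reads in the hybrid, 6174 in B. carinata and 2028 in B. napus, and its read ratio for the hybrid over B. napus was 2.97 (2.82 to 3.12). In the cluster of ADF1, a sequence of 810 bases counted under ADF4 had an Nr hit named actin depolymerizing factor 1. It had 486 reads in the hybrid, 8 in B. carinata and 556 in B. napus, and the ADF1 ratios leave it out. Entries of near-identical ADFs can thus split the copies of the parents between them. The ratios of the ADF1 entry may not be those of the gene. At this level of detail gene output and the naming of copies cannot be told apart. Of the other measured ADFs, all within 2-fold, ADF5 had 7.92 RPKM in the hybrid, 10.03 in B. carinata and 11.9 in B. napus, ADF6 had 49.5, 52.2 and 46.5 RPKM, and ADF9 had 4.67, 5.61 and 6.003 RPKM. ADF8 and the ADF10 entry were not measured. ADF8 had 6 reads in the hybrid, 11 in B. carinata and 0 in B. napus, and ADF10 had 11, 0 and 22 reads in the same order. The whole ADF family held 1081 RPKM in the hybrid, 864 in B. carinata and 869 in B. napus, and its log2 ratio of -0.01 for B. carinata over B. napus turned to 0.27 under both other scalings.

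Most markers of late pollen outside the actin cytoskeleton were also low in the hybrid and in B. carinata. Of 14 listed, 11 had an entry and 8 were measured. They summed to 29.9 RPKM (826 reads) in the hybrid, 25.2 RPKM (622 reads) in B. carinata and 898 RPKM (30403 reads) in B. napus. Relative to B. napus, 6 of the 8 were lower by 2-fold or more in the hybrid and 7 were in B. carinata, against 8.07% and 12.8% of all entries. All markers called lower passed the level filter of their comparison through B. napus alone and could only be lower, so the count supports nothing. VGD1, a pectin methylesterase of pollen tubes, had 1.16 RPKM (20 reads) in the hybrid, 2.78 RPKM (54 reads) in B. carinata and 382 RPKM (8143 reads) in B. napus. The pollen monosaccharide transporter STP9 had 5 reads in the hybrid, 0 in B. carinata and 9750 in B. napus. PPME1, another pectin methylesterase of pollen tubes, had 0.504 RPKM in the hybrid, 0.279 in B. carinata and 127 in B. napus. CPK17, a calcium-dependent kinase, was within 2-fold at 10.9 RPKM in the hybrid, 10.7 in B. carinata and 8.73 in B. napus, and the receptor kinase BUPS1 had 11.2 RPKM in the hybrid, 3.52 in B. carinata and 10.7 in B. napus. In whole buds, fewer pollen grains at this stage and less of each RNA per grain cannot be told apart, and the part of pollen content in the isoform ratios was not tested. The 3 tapetum markers did not move together. A9, made in the tapetum of young anthers, had 853 RPKM in the hybrid, 3665 in B. carinata and 729 in B. napus, while EXL4 had 50.2, 155 and 383 RPKM and EXL6 had 104, 97.9 and 268 RPKM in the same order.

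**Figure D3:**
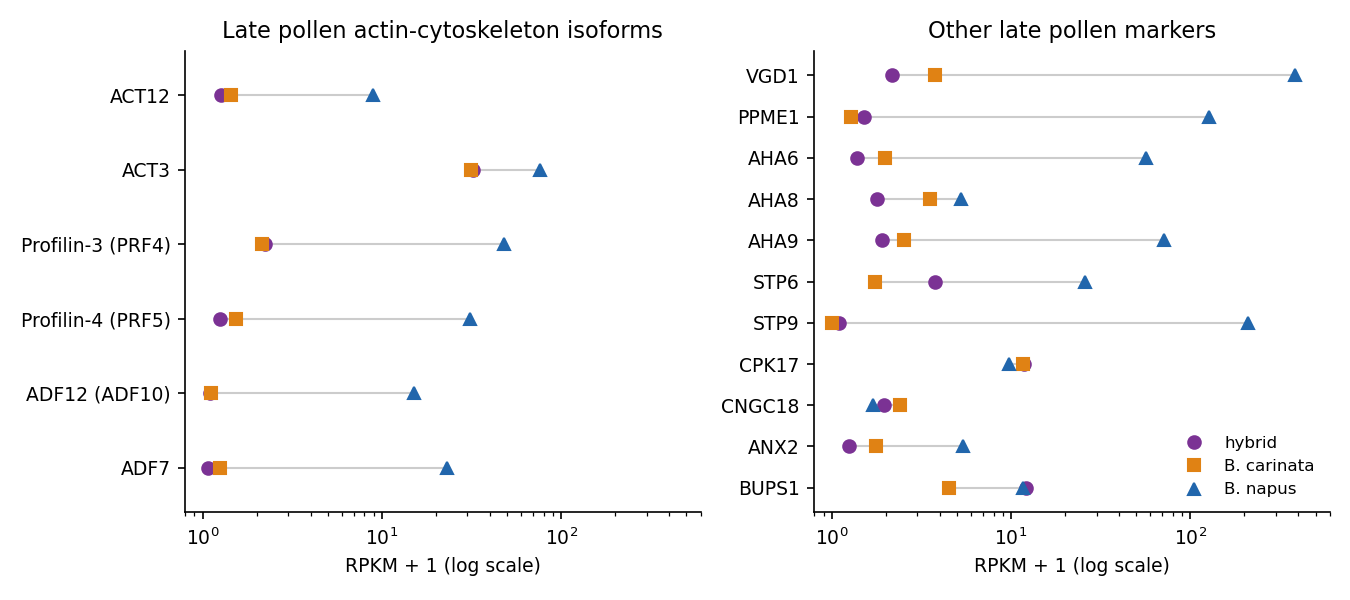
RPKM + 1 on a log axis for the 6 late pollen isoforms of the actin cytoskeleton (left) and for the 11 other late pollen markers with an entry (right), in the hybrid, B. carinata and B. napus, 1 library each. The hybrid and B. carinata points lie near 1 for most genes of both panels and far to the left of B. napus, whereas ACT3, CPK17, CNGC18 and BUPS1 have points closer together.

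Copies that came from 1 parent were followed into the hybrid through sequences read almost wholly in that parent. A sequence was taken as typed by a parent when it had at least 50 reads there and at most 1 read per 50 of them in the other parent. A sequence may be typed because the other parent lacks the copy or because it does not use it, and these cannot be told apart. Among all 7019 sequences typed by B. napus, the median ratio of hybrid to B. napus reads, per library total, was 0.474, and 8.05% were at 0.05 or less. The actin cytoskeleton entries had 28 such sequences, and 7 of them (25%) were at 0.05 or less. These 7 were the 3 of the late pollen list, 2 of the B. napus ADF entry, the sequence of the Scherffelia entry and 1 of a rice formin FH3 entry. The 3 of the late pollen list were the 703-base ADF7 sequence with 0 reads in the hybrid and 317 in B. napus, the 352-base ADF12 sequence with 1 and 110 reads, and the 298-base Profilin-4 sequence with 2 and 186 reads. The ADF7 and ADF12 sequences and the 2 of the B. napus ADF entry were parts of 1 assembly cluster. They are not independent members, and much of the 25% rests on this cluster. The 8 vegetative sequences typed by B. napus had a median ratio of 0.663 and ranged from 0.261 for a fimbrin-1 sequence to 1.10 for an ADF2 sequence. With at least 100 reads asked for, a minimum added after the data were seen, 3 of 18 were at 0.05 or less, all of them the late pollen ones, against 8.39% of all sequences. The ADF7 and ADF12 sequences of that cluster were again among them.

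The 37 sequences of the actin cytoskeleton entries typed by B. carinata all had reads in the hybrid. They had a median ratio of hybrid to B. carinata reads of 0.491, beside 0.499 over all 14547 such sequences, and ranged from 0.109 to 0.910. None was at 0.05 or less, against 3.18% of all. Of the 37, 12 belonged to the vegetative list, with a median of 0.586, and 25 to entries in neither list, with a median of 0.440. No sequence of the late pollen list was typed by B. carinata. Of those on the vegetative list, most reads fell on the sequences of Profilin-1, with 1487 reads in the hybrid and 2190 in B. carinata for 1 of 459 bases, and of ADF4, with 968 reads in the hybrid and 1445 in B. carinata for 1 of 902 bases.

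**Figure D4:**
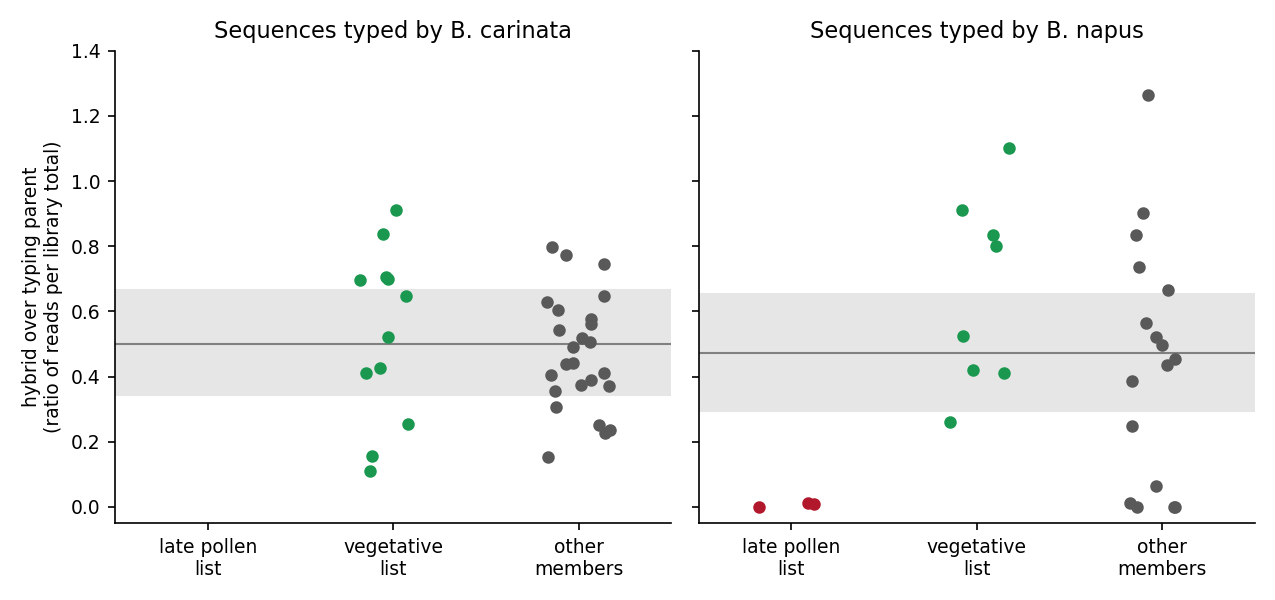
Ratio of reads per library total, hybrid over typing parent, for sequences read almost wholly in B. carinata (left) or in B. napus (right). Points are sequences of the late pollen list, the vegetative list and the other members, the line is the median over all typed sequences (0.499 and 0.474) and the band their middle quartiles. The 3 late pollen sequences lie at or near 0, and no vegetative sequence lies under 0.109.

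Formins were the family with the largest share of its RPKM on low-scoring hits. They held 700.1 RPKM in the hybrid, 992 in B. carinata and 423 in B. napus, with log2 ratios of -0.50 for the hybrid over B. carinata, 0.72 for the hybrid over B. napus and 1.23 for B. carinata over B. napus. The signs held under both other scalings. Of 227 formin sequences 60 had a Swiss-Prot score under 100, and these took 31.6% of the formin RPKM in the hybrid, 38.7% in B. carinata and 18.9% in B. napus. As background, the proline-rich stretch typical of formins can match unrelated proteins. The largest case was FH2, a membrane-anchored formin in Arabidopsis, with 168 RPKM in the hybrid, 319 in B. carinata and 58.5 in B. napus. A sequence of 910 bases with a score of 48.5, whose best Nr hit was a hypothetical protein of the alga Volvox, supplied 91.7 RPKM in the hybrid, 227 in B. carinata and 0.623 in B. napus. With scores of at least 100, an alternative chosen after the data were seen, the log2 ratio of FH2 was 0.34 in place of 1.5 for the hybrid over B. napus and 0.65 in place of 2.43 for B. carinata over B. napus.

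**Figure D5:**
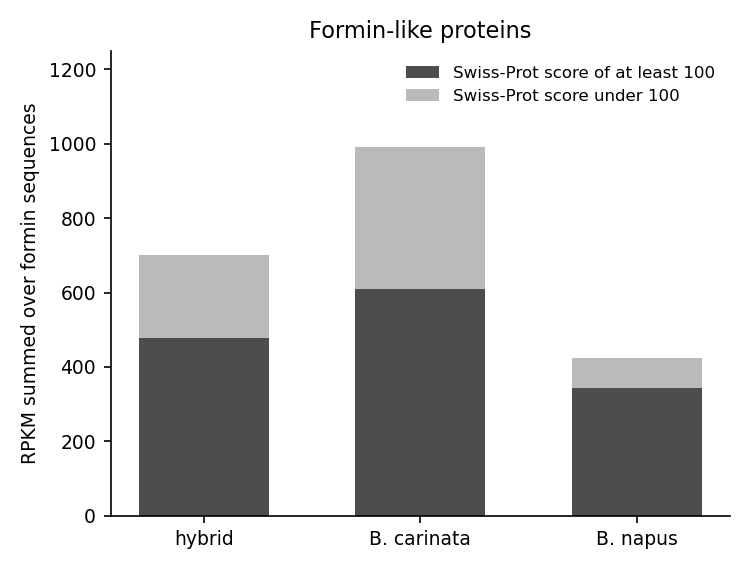
RPKM summed over all formin-like sequences in the hybrid, B. carinata and B. napus, 1 library each, split by the score of the Swiss-Prot hit. Hits scoring under 100 (light) make up 31.6% of the bar of the hybrid, 38.7% of that of B. carinata and 18.9% of that of B. napus.

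Other formins differed in how secure their hits were. FH9 had 37.2 RPKM (1766 reads) in the hybrid, 64.5 RPKM (3172 reads) in B. carinata and 6.25 RPKM (317 reads) in B. napus, with log2 ratios of 2.40 and 3.17 against B. napus. Over sequences read in all 3 libraries the first of these was 0.78. One sequence of 1776 bases with a score of 668 carried most of it, with 1281 reads in the hybrid, 2312 in B. carinata and 0 in B. napus. FH1, a membrane formin of vegetative tissue, had 81.4 RPKM in the hybrid, 94.1 in B. carinata and 54.4 in B. napus, within 2-fold. FH13 had 24.5 RPKM in the hybrid, 45.1 in B. carinata and 26.4 in B. napus, a log2 ratio of -0.85 for the hybrid over B. carinata. FH5, which takes part in pollen tube growth, had 12.8 RPKM in the hybrid, 15.2 in B. carinata and 16.1 in B. napus. FH14, which binds microtubules as well as actin, had 27.9, 29.1 and 30.6 RPKM. FH20, with 56 sequences, had 139 RPKM in the hybrid, 180.3 in B. carinata and 83.2 in B. napus, and was higher in B. carinata than in B. napus (log2 1.11). Much of this gap lay in 3 sequences whose best Nr hit was another protein, singled out after their values were seen. One with a heavy-metal-associated domain had 29.5 RPKM in the hybrid, 38.1 in B. carinata and 0.575 in B. napus. A spliceosome-associated protein had 19.9 RPKM in the hybrid, 36.7 in B. carinata and 4.70 in B. napus, and an algal pherophorin 3.82, 16.1 and 0 RPKM in the same order.

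Entries of rice formins gave the extreme ratios and rested mostly on low scores. No sequence of the rice entries FH1, FH3, FH5 and FH10 had a first Nr hit that named a formin. For FH10 of rice that hit was glycine-rich protein 23. For FH5 of rice the hits included hypothetical proteins and a heavy-metal-associated domain protein. The ratios of these entries may thus not be those of formins. The FH10 entry of rice had 6.41 RPKM (53 reads) in the hybrid, 13.7 RPKM (117 reads) in B. carinata and 0 reads in B. napus, at least 18.4-fold higher in the hybrid and at least 39.1-fold higher in B. carinata than the 3 reads a count of 0 allows. Its log2 ratio was -0.99 for the hybrid over B. carinata, and that for the hybrid over B. napus was 2.89, or 0.95 without the score ratio. The FH1 entry of rice had 42 reads (2.90 RPKM) in the hybrid, 0 reads in B. carinata and 97 reads (6.46 RPKM) in B. napus, at least 32.2-fold lower in B. carinata than in B. napus. The FH3 entry of rice had 1.05 RPKM in the hybrid, 0.217 in B. carinata and 6.76 in B. napus, with log2 ratios of -1.92 and -2.67 against B. napus, which turned to 0.23 and 0.43 without the score ratio. The FH5 entry of rice had 99.7 RPKM in the hybrid, 115 in B. carinata and 33.1 in B. napus, with log2 ratios of 1.56 and 1.76 against B. napus, and these were 0.29 and 0.39 without the score ratio.

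ARP2 and ARP3, the subunits of the ARP2/3 nucleator among the entries here, were level. ARP2 had 15.6 RPKM in the hybrid, 14.1 in B. carinata and 13.4 in B. napus, and ARP3 had 30.3, 32.2 and 29.8 RPKM in the same order. The read ratio of both together was 1.03 (interval 0.963 to 1.10) for the hybrid over B. carinata and 1.03 (0.965 to 1.10) for the hybrid over B. napus. Some nuclear actin-related proteins, which belong to chromatin remodelling complexes, varied more. ARP5 did not, at 11.4 RPKM in the hybrid, 10.3 in B. carinata and 11.6 in B. napus. ARP4 had 57.4 RPKM in the hybrid, 36.4 in B. carinata and 54.1 in B. napus. ARP6, of the SWR1 complex, had 9.94 RPKM in the hybrid, 5.37 in B. carinata and 10.5 in B. napus. Their log2 ratios for the hybrid over B. carinata were 0.64 and 0.78, both within 2-fold. ARP7 had 82.9 RPKM in the hybrid, 64.9 in B. carinata and 39.0 in B. napus, just past 2-fold for the hybrid over B. napus (log2 1.07) and under it with 5 RPKM added (0.999) or with the sequence of highest mean level alone (0.74).

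ARP8, an actin-related protein with an F-box, had 10.1 RPKM (610 reads) in the hybrid, 16.2 RPKM (863 reads) in B. carinata and 2.19 RPKM (92 reads) in B. napus. Its log2 ratio was 1.80 for the hybrid over B. napus and 2.43 for B. carinata over B. napus. One sequence of 2428 bases with a score of 859 had 539 reads in the hybrid, 752 in B. carinata and 22 in B. napus. An ARP9 entry of rice, 1 sequence of 298 bases, had 15 reads (1.86 RPKM) in the hybrid, 48 reads (5.72 RPKM) in B. carinata and 0 in B. napus, which made it the entry with the lowest log2 ratio for the hybrid over B. carinata (-1.23, or -0.64 with 5 RPKM added). ARP9 of Arabidopsis was level at 14.4 RPKM in the hybrid, 13.9 in B. carinata and 12.4 in B. napus.

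All 4 villins and both fimbrins, the bundling proteins, were within 2-fold in all 3 comparisons. Of all entries, 12.2% were apart for the hybrid over B. carinata, 16.6% for the hybrid over B. napus and 31.1% for B. carinata over B. napus. Most entries were thus within 2-fold, and these few say little about bundling proteins as such. Villin-2 had 25.7 RPKM in the hybrid, 33.5 in B. carinata and 36.7 in B. napus, and Villin-3, with which it shares the bundling of filaments in vegetative cells, had 29.4, 32.8 and 29.1 RPKM in the same order. Villin-4 had 62.2 RPKM in the hybrid, 64.2 in B. carinata and 66.0 in B. napus. Fimbrin-1 had 12.9 RPKM in the hybrid, 11.8 in B. carinata and 21.8 in B. napus, with log2 ratios of -0.72 for the hybrid and -0.83 for B. carinata over B. napus, and the fimbrin-like protein 2 had 36.0, 40.0 and 47.4 RPKM.

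Regulators of the actin cytoskeleton outside the named families differed by less than 2-fold between the hybrid and either parent. Of 21 listed, 14 had an entry and 12 were measured. Their sums were 321 RPKM in the hybrid, 295 in B. carinata and 288 in B. napus. None of the 12 was apart, beside 12.2% and 16.6% of all entries in these comparisons, with a median log2 ratio of 0.04 for the hybrid over B. carinata and 0.14 for the hybrid over B. napus. The capping protein subunits CPA and CPB, which close filament ends, had 18.3 and 33.0 RPKM in the hybrid, 21.0 and 26.0 in B. carinata and 20.3 and 24.8 in B. napus. Of the SCAR/WAVE complex, which activates ARP2/3, NAP1 had 26.4 RPKM in the hybrid, 25.01 in B. carinata and 22.7 in B. napus, and PIR had 47.7, 50.7 and 25.9 RPKM in the same order. Of the 12 measured regulators, the single one apart between the parents was ABIL3, beside 31.1% of all entries in that comparison. ABIL3, a further subunit of that complex, had 40.7 RPKM in the hybrid, 20.8 in B. carinata and 56.3 in B. napus.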

How the data were processed

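RNA of floral buds from 1 hybrid, 1 B. carinata and 1 B. napus library was extracted with Trizol, treated with DNase I and sequenced on an Illumina HiSeq, per the labels' protocols and the series' design text. The authors deposited 1 table of 157663 assembled sequences. Per the file headers it holds raw read counts and RPKM values for each library, and the deposited RPKM equals the count over sequence length and the library's total count within 5e-05. Which assembler, aligner and counting tool made it, and whether strand was used, is not given in the sources used here. Beside these, the table gives Nr and Swiss-Prot hits with an alignment score each, per the file headers. The score was used to match sequences to entries.

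RPKM was summed per Swiss-Prot entry over sequences with a Swiss-Prot score of at least 0.6 of the Nr score. A log2 ratio is that of RPKM + 1 and so understates differences of low entries, and a sum over short fragments weighs them more than long ones. Entries that reached 5 RPKM in the higher library were called apart at 2-fold. Read ratios have exact 95% conditional binomial intervals, and bounds against a count of 0 take 3 reads of the library. At a depth of 27.09 to 28.24 times 1000000 reads, those 3 reads are 0.106 to 0.111 per 1000000 reads. With 1 library per group no test was made. The calling rule and intervals were tested on simulated data. Tools were Python 3.11.15, pandas 2.3.3, SciPy 1.17.1 and, for TMM factors, edgeR 4.0.16 in R 4.3.3. The alternatives were other pseudocounts, filters, scalings, score ratios and ways of summing.

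Members and gene lists were chosen with earlier results of these data known, and the lists are no independent support. The genes described are all measured entries of both isoform lists and, per comparison, the 5 highest and 5 lowest log2 ratios among the other measured entries. Genes beyond these were added after their values were seen, for the roles they have in their families. Listed markers of green tissue had no matching entry, and one listed regulator group, the NETWORKED proteins, was not analysed here. Sequences dropped by the score ratio were 383, among them 6 without an Nr score.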

Additional observations from a re-analysis of the deposited data

Results flagged for a closer look

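Myosins, the motors that move along actin filaments, were not among the entries compared, because no kept sequence had a Swiss-Prot entry of that name as its best hit. The Nr annotation, which the comparisons do not use, named a myosin for 52 sequences. The names counted were myosin XI types, numbered myosins and myosins said to have a motor or tail domain. The 52 sequences took 5436 reads in the hybrid, 4877 reads in B. carinata and 5356 reads in B. napus, far above the 3 reads that a count of 0 allows. The total was 139 RPKM in the hybrid, 117 in B. carinata and 122 in B. napus.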

How the results depend on the processing

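No paired analysis was possible because each group has 1 library, and for the same reason no library could be left out. TMM and median-of-ratios scaling moved the median log2 ratio of all entries by 0.18 and -0.30 for the hybrid over B. carinata, by 0.44 and -0.03 for the hybrid over B. napus, and by 0.26 and 0.27 for B. carinata over B. napus.

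The 3 entries apart between the hybrid and B. carinata became 1 with 5 RPKM added, 9 with no filter on low values, 8 with median-of-ratios factors, 6 with no score ratio, 8 with 1 sequence per entry, and 0 with sums of reads without length or with scores of at least 100. The counts against B. napus stayed within 1.5 times (14 to 25 for the hybrid and 16 to 36 for B. carinata), and the cause of the differences was not tested. With TMM factors 2 of 3 were higher in the hybrid than in B. carinata, and 12 of 21 were higher than in B. napus, against 9 of 20 as deposited.

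The late pollen sum of the hybrid over B. napus was -2.40 with 5 RPKM added, -2.08 with TMM factors, -2.38 with no score ratio, -2.21 with sequences read in all libraries, -2.40 with scores of at least 100 and -0.53 by entry number. For B. carinata over B. napus it was -2.41, -2.27 with TMM factors, -2.27 with median-of-ratios factors, -2.35, -2.20 with 1 sequence per entry, -2.23 with sequences read in all libraries and -0.89 by entry number. For the hybrid over B. carinata it was 0.18 with TMM factors, -0.29 with median-of-ratios factors, -0.26 with 1 sequence per entry and 0.36 by entry number.

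The vegetative sum of the hybrid over B. carinata was 0.53 and 0.039 with TMM and median-of-ratios factors, 0.37 with a score ratio of 0.8, 0.32 without one, 0.11 with 1 sequence per entry, 0.38 with sequences read in all libraries and 0.33 with scores of at least 100. For the hybrid over B. napus it was 0.73, 0.24, 0.25 with a score ratio of 0.8, 0.69 with 1 sequence per entry, 0.19 with reads without length and 0.25 by entry number. For B. carinata over B. napus it was 0.20 under both scalings, -0.13 with a score ratio of 0.8, -0.038 without one, 0.59 with 1 sequence per entry, -0.11 with sequences read in all libraries, -0.14 with reads without length and -0.10 by entry number.

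Of 45 called ratios of the entries that the naming rule picks, 31 stayed past 2-fold in all settings that gave a value and 14 did not in at least 1. Reversed were ACT3 with 1 sequence per entry (0.39 for the hybrid and 0.66 for B. carinata over B. napus) and the FH3 entry of rice without a score ratio (0.23 and 0.43). Family sums turned sign under TMM for fimbrins (-0.08 to 0.10) and villins (-0.15 to 0.03) of the hybrid over B. carinata, and for villins of the hybrid over B. napus (-0.14 to 0.31). They did so under both for profilins of B. carinata over B. napus (-0.12 to 0.15), and under median-of-ratios for actin-related proteins of the hybrid over B. carinata (0.23 to -0.08). Depth limits entries with few reads: apart from ACT3, the late pollen ones rest on 1 to 29 reads in the hybrid, and the carrot and Scherffelia actins and the rice entries FH1, FH10 and ARP9 had 0 reads in at least 1 library.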

Other observations

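Among the myosins named by Nr hits, myosin XIK, a main motor of organelle movement in vegetative cells of Arabidopsis, had 41.2 RPKM in the hybrid, 33.7 in B. carinata and 36.0 in B. napus over 8 sequences. The sequences named myosin-like protein XIF had 27.5 RPKM in the hybrid, 30.3 in B. carinata and 25.8 in B. napus. Those named myosin 1 had 14.1 RPKM (476 reads) in the hybrid, 3.83 RPKM (147 reads) in B. carinata and 8.79 RPKM (322 reads) in B. napus, and those named myosin 2 had 9.14, 12.5 and 3.09 RPKM in the same order. Myosins XI A, XI B and XI D, which in Arabidopsis belong to pollen, were low in all 3 libraries. XI A had 12 reads in the hybrid, 30 in B. carinata and 23 in B. napus, XI B had 21, 10 and 0 reads, and XI D had 7, 7 and 8 reads. These sequences were named from the first Nr hit alone, and no ratio was computed for them.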
